A study of Mus musculus with 4 samples.

Results

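A set of 9 genes of the arterial programme and of Notch signalling, namely Dll4, Jag1, Jag2, Notch1, Notch4, Hey1, Gja4, Gja5 and Bmx, were followed by name in single-nucleus RNA-seq of mouse brain. All 9 were among the 31053 genes counted in each of 4 libraries, and each was measured in endothelial nuclei, in smooth muscle nuclei and in all other nuclei. Endothelial-gated nuclei held at least 5 unique molecules (UMIs) of Flt1, Cldn5, Adgrl4 and Mecom together, and smooth muscle-gated nuclei held at least 5 UMIs of Myh11, Acta2, Tagln, Cnn1, Lmod1 and Myocd and fewer than 5 of the endothelial gate. Of 74107 nuclei kept, 3959 passed the endothelial gate, 133 the smooth muscle gate, and 70015 were the other nuclei. None of the 9 genes entered a gate.

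The groups were male C57BL/6J mice that received an AAV9 vector into the cisterna magna at 4 weeks of age and were sampled at 8 weeks. AAV-CTRL encoded mVEGFR3(4–7)-Ig, a soluble receptor fragment that does not bind the ligand, and AAV-VEGF-C encoded mouse VEGF-C. Cortex-labelled and striatum-labelled tissue of each group was pooled from 5 brains into 1 library, so that every group was a single library, both regions of an AAV group came from the same mice, and no spread between mice could be seen. Intervals below are 95% intervals that cover counting error only, and no p-value was computed.

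Notch receptors on one cell are activated by Delta-like and Jagged ligands on a neighbour, and the freed intracellular part of the receptor switches on target genes of the Hes and Hey families with the DNA-binding partner Rbpj. In the vessel wall this pathway is known for setting arterial identity and for restraining sprouting, with Dll4 and Notch4 largely endothelial and Jag1 also used between endothelium and smooth muscle. Gja4 and Gja5 encode gap junction proteins of arterial endothelium, and Bmx encodes a Tec-family tyrosine kinase known from arterial endothelium and endocardium.

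In the GRCm38 annotation, the ligand genes lay at chr2:119325784-119335962 on the + strand (Dll4, ENSMUSG00000027314), chr2:137081456-137116644 on the - strand (Jag1, ENSMUSG00000027276) and chr12:112907819-112929776 on the - strand (Jag2, ENSMUSG00000002799). The receptors lay at chr2:26457903-26516663 on the - strand (Notch1, ENSMUSG00000026923) and chr17:34564268-34588503 on the + strand (Notch4, ENSMUSG00000015468), and Hey1 (ENSMUSG00000040289) at chr3:8663359-8667256 on the - strand. The connexin genes lay at chr4:127311421-127314039 on the - strand (Gja4, ENSMUSG00000050234) and chr3:96904693-97077416 on the + strand (Gja5, ENSMUSG00000057123), and Bmx (ENSMUSG00000031377) at chrX:164192842-164258193 on the - strand. Genes on the opposite strand overlapped Gja5 (Gpr89, 9230114J08Rik and 4930573H18Rik among them), Dll4 (Gm14207), Notch1 (0610009E02Rik and Gm13568) and Notch4 (Gm20462), and the strand setting of the counting is not given in the sources used here, so reads of these pairs may not have been told apart.

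Promoter windows of 300 bases, from 250 before to 50 after the RefSeq start in GRCm38.p6, were found for 8 of the 9 genes. The windows of Gja5 and of Notch1 (chr2:26503773-26504072) lay well inside the gene spans given above, at starts other than the span ends. Those of Bmx, Gja5 and Gja4 are shown because these 3 genes were highest in the same endothelial nuclei, and that of Dll4 because it was not. Capitals mark 6-letter matches, searched on both strands, to an ETS core (CAGGAA, reverse TTCCTG) or an RBPJ core (TGGGAA, reverse TTCCCA). Core stands here for these exact letters only, and shorter or variant forms were not searched.
Bmx, chrX:164258144-164258443, - strand: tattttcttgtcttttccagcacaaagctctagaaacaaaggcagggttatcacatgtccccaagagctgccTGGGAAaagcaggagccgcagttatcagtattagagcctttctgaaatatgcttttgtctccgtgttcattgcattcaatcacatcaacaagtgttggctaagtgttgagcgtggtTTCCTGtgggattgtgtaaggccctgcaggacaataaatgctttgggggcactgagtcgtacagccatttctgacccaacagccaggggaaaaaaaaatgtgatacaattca
Gja5, chr3:97032152-97032451, + strand: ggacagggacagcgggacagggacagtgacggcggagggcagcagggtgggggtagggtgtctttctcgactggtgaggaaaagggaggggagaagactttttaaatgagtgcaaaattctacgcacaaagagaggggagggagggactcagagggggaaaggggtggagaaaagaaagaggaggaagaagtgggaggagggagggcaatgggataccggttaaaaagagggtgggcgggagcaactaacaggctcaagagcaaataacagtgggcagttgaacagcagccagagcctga
Gja4, chr4:127313990-127314289, - strand: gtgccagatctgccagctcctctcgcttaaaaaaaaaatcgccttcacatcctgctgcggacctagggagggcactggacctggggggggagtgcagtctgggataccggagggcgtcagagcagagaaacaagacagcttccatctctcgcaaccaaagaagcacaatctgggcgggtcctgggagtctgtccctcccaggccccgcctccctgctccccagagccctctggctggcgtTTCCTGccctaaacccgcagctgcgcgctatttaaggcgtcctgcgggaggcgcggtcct
Dll4, chr2:119325534-119325833, + strand: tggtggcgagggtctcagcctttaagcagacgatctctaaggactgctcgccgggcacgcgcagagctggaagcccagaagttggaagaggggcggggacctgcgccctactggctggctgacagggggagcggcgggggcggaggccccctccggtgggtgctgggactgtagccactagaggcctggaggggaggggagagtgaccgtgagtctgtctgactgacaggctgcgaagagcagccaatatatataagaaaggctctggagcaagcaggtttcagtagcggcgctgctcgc
The Bmx window held an RBPJ core at position -178 from the start and an ETS core at -62, and the Gja4 window an ETS core at -10. The Gja5 and Dll4 windows held neither set of letters. Over the 8 windows an ETS core was found in 4 (Bmx, Gja4, Notch1 and Notch4) and an RBPJ core in 1, against 30.6% and 25.6% of 32851 windows of the same length. A SOX core (AACAAT, reverse ATTGTT) was found in 0 of 8 and in 10.7% of all windows. These matches describe letters in a window only.

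The libraries held 17168 to 23724 nuclei and 63165470 to 78332657 UMIs before doublets were removed, and 598 barcodes occurred in more than 1 library. Genes of striatal projection neurons went against the region labels: Ppp1r1b stood at 62.8 and 75.6 UMIs per 1000000 UMIs of the same nuclei (CPM) in the libraries labelled cortex and at 18.9 and 18.5 in those labelled striatum, so the regions are named here by label only. Vegfc, the gene the vector carries, was at 10.5 and 10.1 CPM in other nuclei of the cortex AAV-CTRL and AAV-VEGF-C libraries and at 9.59 and 9.24 CPM in those of the striatum label, so its counts in other nuclei did not set the AAV labels apart. The study reports Vegfc transcripts in smooth muscle cells, at a higher level there after AAV-VEGF-C. Smooth muscle-gated nuclei held 16 Vegfc UMIs in all, which were not compared between AAV labels here. Whether the vector's transcript is counted by these 3' libraries is not known. The endothelial gate was borne out by 16 of 16 further endothelial markers at least 4-fold higher than in other nuclei in each library, with a summed level of 6355 to 7593 CPM against 117 to 162, and 74.4 to 82.7% of the gated nuclei fitted the endothelial marker list best. Endothelial-gated nuclei also carried pericyte markers (1564 to 1864 CPM, against 5291 to 7314 in the pericyte-marker class), smooth muscle markers (416 to 706 CPM, against 11.7 to 18.2 in other nuclei), astrocyte markers (2644 to 3662 CPM, against 1539 to 1910) and choroid plexus markers (1102 to 4396 CPM, against 363 to 735). The sum of 6 lymphatic markers was 54.3 to 83.1 CPM, lower than in other nuclei. Singly, 4 of the 6 were higher in endothelial-gated nuclei in cortex AAV-CTRL and both striatum-labelled libraries, and 2 in cortex AAV-VEGF-C.

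In endothelial-gated nuclei all 9 genes were higher than in other nuclei in each of the 4 libraries. Of these, 7 of 9 were at least 4-fold higher in all 4 libraries, where 5.41% of 18438 genes were, and the exceptions were Jag2 and Hey1. With the libraries summed, Bmx was 85.9-fold higher (interval 72.8 to 102), Dll4 44.4-fold (36.7 to 53.8), Notch4 37.5-fold (32.3 to 43.7) and Gja4 32.8-fold (28.5 to 37.7). Jag1 followed at 12.3-fold (11.2 to 13.6), Notch1 at 10.3-fold (9.79 to 10.8), Gja5 at 8.05-fold (6.25 to 10.3), Jag2 at 3.92-fold (3.69 to 4.17) and Hey1 at 3.18-fold (2.88 to 3.51). These folds moved with which nuclei entered and with depth: on the log2 scale Bmx went from 6.42 to 5.56 with every nucleus thinned to 1000 UMIs, Gja4 from 5.03 to 4.34 and Notch1 from 3.36 to 2.66. Without the nuclei that also passed the smooth muscle threshold, Bmx was at 5.68 and Gja5 went from 3.01 to 2.02. In the order of folds as first given, neighbours whose intervals overlapped were Dll4, Notch4 and Gja4 on the one hand and Notch1 and Gja5 on the other.

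Among the ligands, Dll4, the Delta-like ligand of tip and arterial cells, stood at 36.1, 27.9, 25.5 and 25.3 CPM in endothelial-gated nuclei, given here and from here on with both cortex-labelled libraries first, then both striatum-labelled ones, and AAV-CTRL before AAV-VEGF-C within each. In other nuclei it stood at 0.568, 0.66, 0.696 and 0.6 CPM. The cortex AAV-CTRL library was the highest in endothelial nuclei, and its interval (29.2 to 44.1) overlapped those of the other libraries. Jag1 was at 54.7, 48.9, 62.1 and 50.6 CPM, against 2.66, 3.44, 6.17 and 5.27 CPM in other nuclei. For Jag1 the endothelial levels were close to each other, and the level in other nuclei was higher in both striatum-labelled libraries. Jag2, the third ligand, was at 106, 88, 101 and 93.4 CPM, with 19.8, 18.9, 29.7 and 30.5 CPM in other nuclei, again higher there in the striatum-labelled libraries, which is where the endothelial excess fell below 4-fold (3.39 and 3.07).

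Notch1, the most widely used of the receptors, was at 207, 176, 171 and 179 CPM in endothelial-gated nuclei and at 16.7, 15.8, 20.4 and 17.6 CPM in other nuclei. Notch4, the endothelial receptor, was at 38, 43.2, 36.8 and 40.2 CPM against 1.07, 0.938, 1.21 and 1 CPM. The Notch4 intervals of all 4 libraries overlapped, and Notch1 was highest in the cortex AAV-CTRL library, whose interval (190 to 225) overlapped that of cortex AAV-VEGF-C (162 to 192) only at its edge and lay above that of striatum AAV-CTRL (158 to 184). Hey1, a transcriptional repressor downstream of Notch, was at 41.8, 38.7, 28.7 and 36.4 CPM in endothelial-gated nuclei and at 12, 13.3, 9.18 and 10.3 CPM elsewhere, so that the striatum AAV-CTRL library was lowest in both kinds of nuclei.

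Of the connexins, Gja4 was at 38.7, 50.8, 33.6 and 46 CPM in endothelial-gated nuclei, and it was higher in the AAV-VEGF-C library under each region label. Other nuclei held 0.994, 1.22, 1.52 and 1.37 CPM of Gja4. Gja5 was scarce, with 19, 13, 38 and 23 UMIs in endothelial-gated nuclei, or 7.22, 4.13, 9.39 and 6.69 CPM, against 0.55 to 1.1 CPM in other nuclei. The 4 intervals of Gja5 overlapped, the widest pair being 2.2 to 7.06 and 6.65 to 12.9 CPM. Bmx was at 63.4, 63.2, 49.2 and 65.8 CPM, with 0.568, 0.616, 0.943 and 0.634 CPM in other nuclei. The striatum AAV-CTRL library was the lowest of the 4 for Bmx in endothelial nuclei and the highest in other nuclei.

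**Figure D1:**
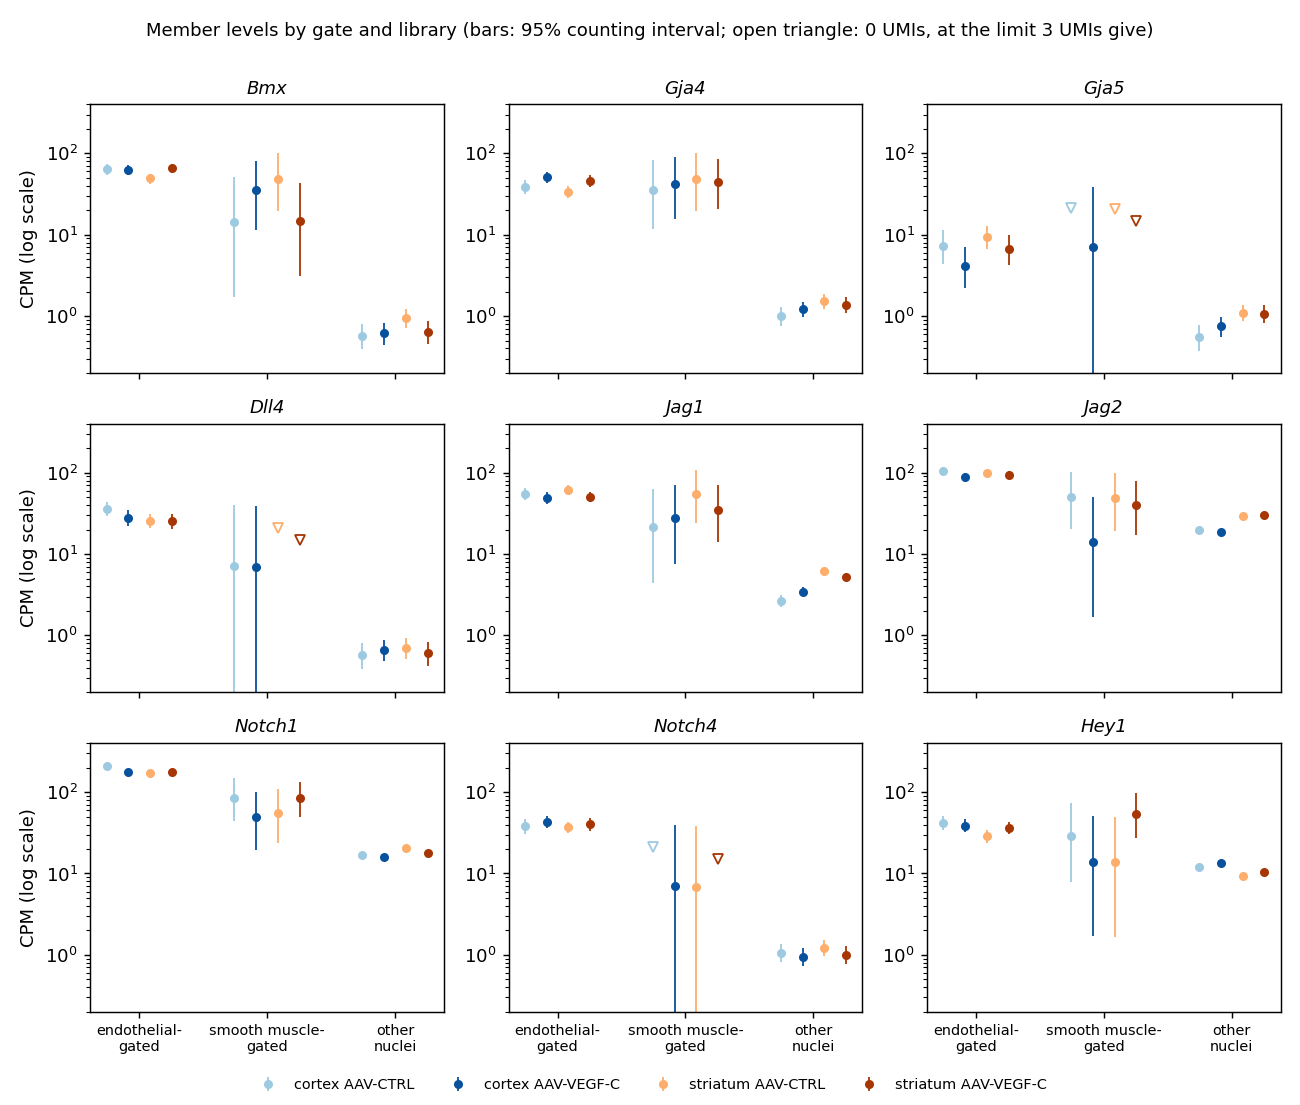
Level of each gene (CPM, log axis) in endothelial-gated, smooth muscle-gated and other nuclei; each point is 1 library, coloured by region and AAV label, bars are 95% counting intervals, and open triangles mark 0 UMIs at the limit that 3 UMIs give. Endothelial points lie above those of other nuclei in all 9 panels, by 85.9-fold for Bmx and 3.18-fold for Hey1, and the smooth muscle intervals are wide because 133 nuclei carry them.

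Shares of nuclei with a UMI gave the same picture at low detection. Notch1 was seen in 34.6% of endothelial-gated nuclei, Jag2 in 23.3%, Jag1 in 12.7% and Gja5 in 1.82%, with the other 5 genes between 8.11% (Dll4) and 11.01% (Notch4). Oligodendrocyte-marker nuclei, a class that should lack the endothelial genes, gave 0.0358% for Dll4, 0.206% for Notch4, 0.125% for Gja5 and 0.143% for Bmx, with median depths of 1651 to 2055 UMIs against 1921 to 2290.5 in endothelial-gated nuclei. With every nucleus thinned to 1000 UMIs and shallower nuclei left out (11 to 74 endothelial-gated nuclei a library), Dll4 was seen in 2.53 to 4.38% of endothelial-gated nuclei and in at most 0.0945% of oligodendrocyte-marker nuclei. Hey1 was the gene nearest to its background: thinned shares were 4.78, 3.17, 2.12 and 4.87% in endothelial-gated and 2.30, 1.89, 1.26 and 1.18% in oligodendrocyte-marker nuclei.

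The levels also followed the strength of the gate. From nuclei with 5 to 9 UMIs of the gate genes to those with 20 or more, Notch1 went from 99.3 to 230 CPM, Dll4 from 12.1 to 34.5 CPM, Gja4 from 20.1 to 57.5 CPM and Bmx from 41.0 to 74.6 CPM. Of the 1183 nuclei with 5 to 9 gate UMIs, 421 fitted another marker class better than the endothelial one, against 130 of 1267 with 20 or more, and the median depth was 1482 against 3735 UMIs. Nuclei with 3 or 4 gate UMIs, counted here as other nuclei, held 69.8 CPM of Notch1 and 8.00 CPM of Dll4, between the levels at 1 or 2 gate UMIs (20.7 and 0.893 CPM) and those inside the gate. The part of depth and of the other classes in this gradient was not tested.

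Smooth muscle-gated nuclei held 4 of the 9 genes at a level at least 4-fold over other nuclei with the libraries summed, where 9.09% of 19572 genes did, and 1 of these, Dll4, rested on 2 UMIs. Bmx was at 14.3, 35.0, 48.4 and 14.9 CPM in the 4 libraries (2, 5, 7 and 3 UMIs) and 38.9-fold higher than in other nuclei (22.2 to 64.2). Gja4 was at 35.8, 42.0, 48.4 and 44.6 CPM and 33.5-fold higher (21.8 to 49.7), a level that did not differ from that of endothelial-gated nuclei beyond counting error (1.02-fold, 0.669 to 1.51). Bmx, by contrast, was lower than in endothelial-gated nuclei (0.453-fold, 0.263 to 0.73).

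Jag1 was at 21.5, 28.0, 55.3 and 34.7 CPM in smooth muscle-gated nuclei, 7.93-fold over other nuclei (4.95 to 12.1). Notch1 was 3.97-fold (2.88 to 5.34) and Hey1 2.69-fold (1.62 to 4.22) over other nuclei, while the intervals of Jag2 (0.991 to 2.30), Dll4 (0.602 to 18.4), Notch4 (0.364 to 11.04) and Gja5 (0.046 to 10.3) reached 1. Dll4 and Notch4, with 2 UMIs each, stood at 0.113-fold (0.0136 to 0.411) and 0.0807-fold (0.00974 to 0.293) of their endothelial levels. Ependymal markers moved with part of this: 5 of the 133 nuclei fitted the ependymal class, lay in 3 of the 4 libraries and held 34.6% of the UMIs. Without them Bmx was 55.7-fold, Gja4 51.3-fold and Jag1 12.1-fold over other nuclei, Notch1 fell to 2.75-fold (1.68 to 4.25), and Hey1 to 1.51-fold (0.607 to 3.12), so that the Hey1 excess was no longer beyond counting error. Gja4 was then at 65.6 CPM (43.2 to 95.4), against 41.9 CPM (38.5 to 45.6) in endothelial-gated nuclei. Bmx was at 38.9 CPM (22.2 to 63.1) against 59.6 CPM (55.5 to 63.9), and for both genes the intervals overlapped. At least 2 of the 6 smooth muscle markers were seen in 124 of the 133 nuclei. The marker classes held no smooth muscle list, so these nuclei were given another class or none. The class was excitatory neuron for 11, 8, 7 and 5 of them. In the libraries other than cortex AAV-VEGF-C it was inhibitory neuron for 3, 15 and 3 and unresolved neuron for 4, 9 and 6. The 5 markers of all neurons summed to 4098 to 7383 CPM, against 12101 to 13368 CPM in other nuclei, and their part was not tested. The 133 nuclei also carried the 16 endothelial check markers at 447 to 823 CPM, against 117 to 162 in other nuclei and 6355 to 7593 in endothelial-gated nuclei, and fibroblast markers at 229 to 1715 CPM, whose part in these folds was not tested.

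The remaining marker classes showed where else each gene was found. Gja4 was highest in pericyte-marker nuclei, at 88.3, 105, 64.0 and 76.5 CPM, which summed to 1.97-fold of the endothelial level (1.52 to 2.51). Notch1 in the same nuclei was at 201, 166, 174 and 186 CPM, level with endothelial nuclei (0.996-fold, 0.844 to 1.17). In astrocyte-marker nuclei Notch1 was at 120, 117, 104 and 104 CPM, in ependymal-marker nuclei at 92.9 CPM with the libraries summed, in oligodendrocyte precursors at 58.0 CPM in excitatory and inhibitory neurons at 3.96 and 4.23 CPM and in neurons of neither class at 9.38 CPM. Notch1 was therefore found well outside the vessel wall.

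Jag1 was also carried by pericyte-marker (45.7 CPM) and fibroblast-marker nuclei (42.0 CPM), and by astrocyte-marker nuclei at 7.38, 10.5, 17.1 and 17.2 CPM, higher in both striatum-labelled libraries. Jag2 was in turn found in neurons: excitatory neurons held 22.2, 20.7, 35.5 and 37.4 CPM and inhibitory neurons 20.3, 21.4, 36.0 and 37.7 CPM, again higher under the striatum label. Hey1 ranged from 5.16 CPM in choroid plexus-marker to 25.9 CPM in ependymal-marker nuclei among the named classes without the endothelial marker genes. Dll4, Notch4, Bmx and Gja5 were at most 8.92 CPM in pericyte-marker nuclei and in each named class outside the vessel wall, and in pericyte-marker nuclei Bmx was at 6.69 CPM, 0.112-fold of the endothelial level (0.041 to 0.245).

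**Figure D2:**
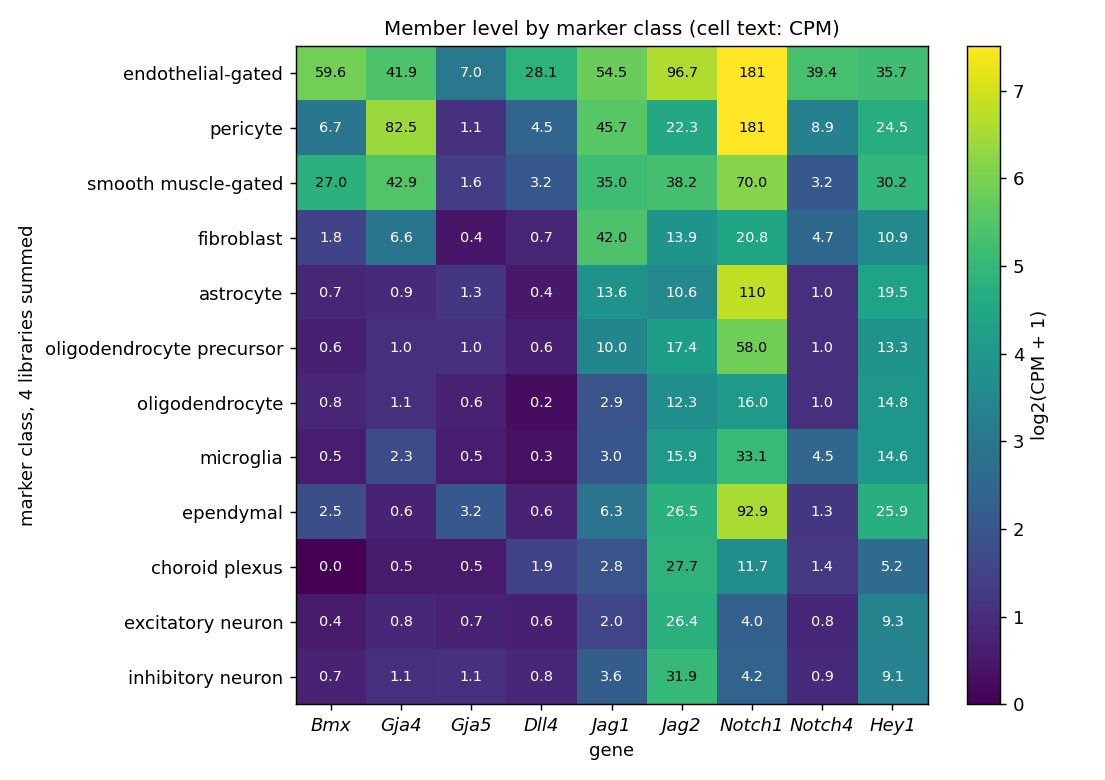
Level of each gene by marker class, 4 libraries summed; colour is log2(CPM + 1) and the number in each cell is the CPM. Dll4, Notch4 and Bmx are brightest in the endothelial-gated line, Gja4 in the pericyte line (82.5 CPM), and Notch1 is also bright in pericyte and astrocyte lines (181 and 110 CPM).

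Genes whose levels followed each member most closely were taken by Pearson r of log2(CPM + 1) over 52 groups (15 marker classes in the 4 libraries), which share libraries and depth. Dll4 went with Gm32688 (r = 0.936), Apol10b (0.895) and Sigirr (0.887), Notch4 with Pecam1 (0.900), Eng (0.870) and Ybx1 (0.869), and Jag1 with Bgn (0.866), Cdh5 (0.861) and A4galt (0.860). Gja4 went with Hrct1 (0.951), Gper1 (0.934) and Ndufa4l2 (0.925), and Bmx with Myh11 (0.917), Ly6c1 (0.902) and Cldn5 (0.899), of which Myh11 and Cldn5 were gate genes. The values for Notch1 (Npepl1, 0.857; Zfp36l1, 0.857; Gnai2, 0.823), Jag2 (Spock2, 0.801; Sgms1, 0.800; Esyt2, 0.797), Hey1 (Cdkn1a, 0.767; Irf2bpl, 0.704; Taf12, 0.682) and Gja5 (Ly75, 0.717; Scgb3a1, 0.713; Slc30a1, 0.710) were lower.

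Within the endothelium, nuclei were scored for arterial and venous genes by lists that hold none of the 9. Nuclei with at least 3 UMIs of the 14 arterial genes (such as Gkn3, Sema3g and Mgp), and more of them than of the 12 venous genes, were called arterial-scored, and the reverse venous-scored. Gkn3 was at 73.2 to 118 CPM in endothelial-gated and 0.55 to 1.48 CPM in other nuclei. Stmn2, also among the 14, was at 188 to 219 CPM against 199 to 265 CPM. In smooth muscle-gated nuclei Mgp and Eln, 2 others of the 14, stood at 482 and 332 CPM. RNA of other cells can therefore enter the arterial score, and its part was not tested. There were 228, 257, 344 and 296 arterial-scored nuclei (28.4% of all endothelial-gated nuclei), 96, 127, 171 and 106 venous-scored and 2334 scored neither. Median depths were 3192, 3518 and 1658 UMIs, so the nuclei scored neither were shallower. Vegfc was 1 of the 14 arterial genes, and its endothelial level was 48.6, 53.0, 66.3 and 60.5 CPM, with intervals of the AAV ratio that included 0 under both region labels.

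All 9 genes were higher in arterial-scored than in venous-scored nuclei with the libraries summed, and 6 of 9 were at least 2-fold higher, where 4.07% of 14724 genes were and 3.52% were at least 2-fold lower. The median log2 ratio of the 9 was 1.17, against 0.01 over all genes tested. Gja5 had 19, 12, 37 and 23 UMIs in arterial-scored nuclei, 0, 1, 1 and 0 in venous-scored nuclei and 0 in nuclei scored neither, which allows up to 0.609 CPM there against 16.6 CPM in the arterial-scored. Its ratio of arterial-scored to venous-scored nuclei was 23.7, with a counting interval of 6.37 to 198. Bmx was at 140, 131, 117 and 127 CPM in arterial-scored and at 13.6, 9.41, 2.20 and 16.7 CPM in venous-scored nuclei, 13.0-fold higher (8.91 to 19.7), and arterial-scored nuclei held 88.4% of its endothelial UMIs. The libraries of the zones did not overlap for either gene.

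Hey1 was at 54.7, 61.6, 38.2 and 43.9 CPM in arterial-scored and 20.3, 17.3, 16.5 and 8.36 CPM in venous-scored nuclei, 3.16-fold higher (2.29 to 4.45) and with no overlap between the libraries of the 2 zones. Jag2 was 2.25-fold higher (1.89 to 2.69), Gja4 2.30-fold (1.81 to 2.93), Notch4 2.02-fold (1.55 to 2.67) and Dll4 1.89-fold (1.39 to 2.60). Jag1 was 1.59-fold higher (1.31 to 1.93), and Notch1 1.24-fold (1.12 to 1.38). For Notch1 the cortex AAV-CTRL library went the other way, with 235 CPM in arterial-scored and 246 CPM in venous-scored nuclei (0.957-fold, 0.776 to 1.19). Against nuclei scored neither, venous-scored nuclei were higher in Jag1 (1.73-fold, 1.36 to 2.19) and Gja4 (1.77-fold, 1.30 to 2.41) and lower in Hey1 (0.469-fold, 0.328 to 0.658), Jag2 (0.63-fold, 0.522 to 0.757) and Notch4 (0.668-fold, 0.499 to 0.885).

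**Figure D3:**
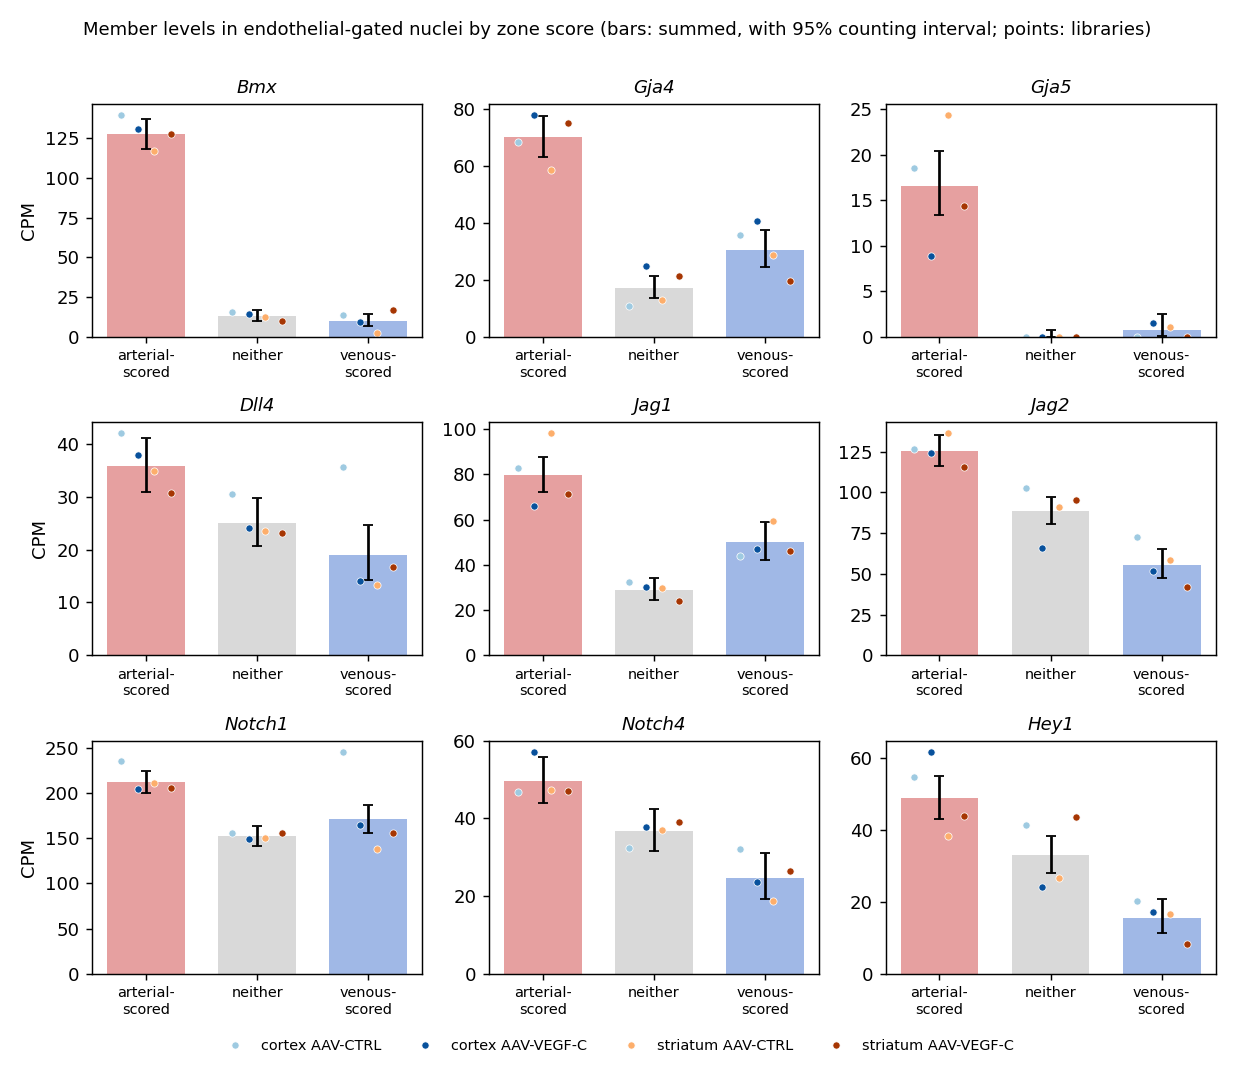
Level of each gene (CPM, linear axes starting at 0) in arterial-scored, neither and venous-scored endothelial-gated nuclei; bars are the 4 libraries summed with 95% counting intervals and points are libraries. Gja5 and Bmx stand almost wholly in the arterial-scored bar (16.6 and 127 CPM), whereas the Notch1 bars lie between 153 and 212 CPM.

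Smooth muscle markers moved with part of this zone pattern. Of the endothelial-gated nuclei, 34, 43, 56 and 52 also had 5 or more smooth muscle UMIs, 185 in all or 4.67% (4.04 to 5.38), with median depths of 7108 to 10055 UMIs. They held 14.6% of all endothelial UMIs, but 57.0% of those of Gja5, 49.1% of Bmx, 40.8% of Gja4 and 37.5% of Jag1. Per UMI, Gja5 was 7.75-fold higher in these nuclei than in the remaining endothelial-gated nuclei (5.05 to 12), Bmx 5.63-fold (4.89 to 6.49), Gja4 4.04-fold (3.39 to 4.795) and Jag1 3.51-fold (3.01 to 4.09). Dll4 did not differ beyond counting error (0.991-fold, 0.728 to 1.32), Notch1 was 1.25-fold higher (1.12 to 1.39), and Notch4, Jag2 and Hey1 lay between 1.505- and 1.67-fold. Nuclei of this kind may hold RNA of more than 1 cell, which was not tested.

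With these 185 nuclei left out, the log2 ratio of arterial-scored to venous-scored nuclei was 3.68 for Bmx (2.98 to 4.47) and 4.72 for Gja5 (2.16 to 10.1), against 3.70 and 4.57 with them. It was 1.41 for Hey1 (0.91 to 1.93), 0.95 for Jag2 (0.68 to 1.23), 0.90 for Dll4 (0.44 to 1.39) and 0.70 for Notch4 (0.29 to 1.13). For Gja4 it fell to 0.42 (0.02 to 0.82), and for Jag1 to -0.03 (-0.37 to 0.31), no longer beyond counting error. The count of genes at least 2-fold higher was then 3 of 9, namely Gja5, Bmx and Hey1.

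UMIs of the 9 genes were spread unevenly over nuclei. No UMI of any was seen in 39.3% of endothelial-gated nuclei, 1 gene was seen in 30.8%, 2 in 15.7% and all 9 in 2 nuclei. Bmx reached 20 UMIs in a nucleus, and 99 nuclei with 3 or more held 54.9% of its UMIs, whereas Dll4 reached 3 and such nuclei held 6.43%. In nuclei with a Bmx UMI, Gja5 was at 29.1 CPM against 1.77 in the rest (log2 4.04, 3.29 to 4.85), Gja4 at 106 against 26.7 CPM (1.99, 1.75 to 2.24) and Jag1 at 122 against 38.5 CPM (1.66, 1.44 to 1.88). Dll4 in nuclei with a Jag1 UMI was the 1 pair of 72 below 0 (log2 -0.10, -0.45 to 0.25), and Jag2 in the same nuclei was at 0.10 (-0.08 to 0.28). Nuclei with a UMI were deeper, 4254 against 1951 UMIs at the median for Bmx, and the part of depth was not tested.

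**Figure D4:**
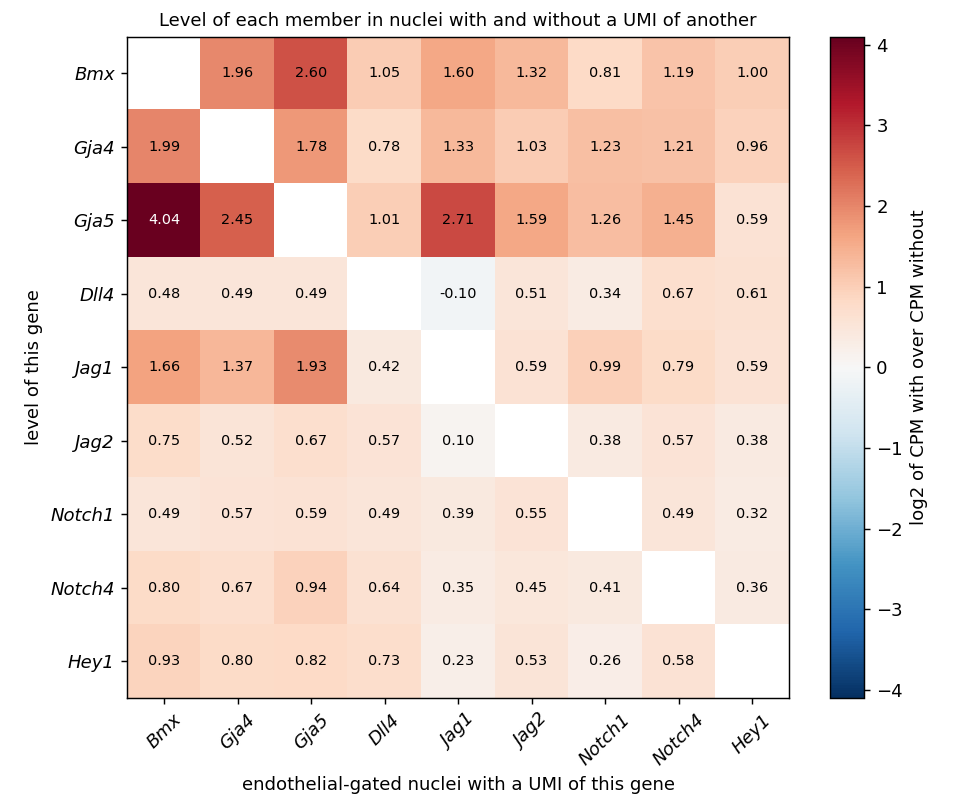
Level of the gene in each line in endothelial-gated nuclei with a UMI of the gene in each column, relative to nuclei without, as log2 of the CPM ratio, 4 libraries summed; the number is the value in each cell. The highest value is that of Gja5 in nuclei with a Bmx UMI (4.04), and the Dll4 line runs from -0.10 to 0.67.

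The AAV labels were compared within each region label, the question of the study being what VEGF-C delivered to the cerebrospinal fluid changes in brain cells. Under the cortex label 1 of 9 genes was past 1.5-fold, Gja5, which was lower with AAV-VEGF-C and rested on 13 and 19 UMIs, where 3.57% of 13795 genes were past that fold lower and 4.5% higher. Under the striatum label 0 of 9 were, where 8.34% of 14736 genes were lower and 3.49% higher. Intervals lay away from 0 for 3 of 9 genes under each label, against 11.3% and 21.5% of all genes tested, whose median log2 ratios were -0.00 and -0.05. Ratios of 6 of the 9 genes had the same sign under both labels. The share of all genes with the same sign is not given here, so no agreement between the labels is read from this count.

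Gja4 was the member with an interval above 0 under both labels, at log2 0.39 (0.02 to 0.76) under the cortex and 0.45 (0.11 to 0.79) under the striatum label. Bmx was at -0.01 (-0.31 to 0.30) and 0.42 (0.14 to 0.70), so its higher level with AAV-VEGF-C was seen under the striatum label only by interval, and the difference between the labels was not tested. Smooth muscle markers and zone shares moved with these values. Under the striatum label the share of nuclei passing both gates was 4.31% (3.27 to 5.56) with AAV-CTRL and 5.82% (4.37 to 7.56) with AAV-VEGF-C, with overlapping intervals. The share of arterial-scored nuclei was 26.5% (24.1 to 29.0) with AAV-CTRL and 33.1% (30.0 to 36.3) with AAV-VEGF-C. Under the cortex label those shares were 4.15% and 4.54%, and 27.8% and 27.1%. Summed astrocyte markers in endothelial-gated nuclei were higher with AAV-VEGF-C under both labels (2995 and 3662 CPM, 2644 and 3276 CPM), and choroid plexus markers went from 1333 to 4396 CPM under the cortex and from 2044 to 1102 CPM under the striatum label; the part of these in the ratios was not tested. Without the nuclei passing both gates, Gja4 was at 0.37 (-0.11 to 0.85) and 0.30 (-0.15 to 0.74), and Bmx at -0.44 (-0.87 to -0.01) and 0.10 (-0.30 to 0.50). Within arterial-scored nuclei Gja4 was at 0.19 (-0.26 to 0.65) and 0.36 (-0.05 to 0.77), and Bmx at -0.10 (-0.42 to 0.23) and 0.13 (-0.17 to 0.42).

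Of the ligands, Jag1 was lower with AAV-VEGF-C under the striatum label (-0.29, -0.58 to -0.01) and at -0.16 (-0.50 to 0.18) under the cortex label, and Jag2 was lower under the cortex label (-0.26, -0.51 to -0.02) and at -0.11 (-0.32 to 0.11) under the striatum label. Dll4 was at -0.37 (-0.80 to 0.07) and -0.01 (-0.44 to 0.42). Of the receptors, Notch1 was lower under the cortex label (-0.23, -0.40 to -0.06) and at 0.07 (-0.09 to 0.23) under the striatum label, and Notch4 was at 0.19 (-0.20 to 0.57) and 0.12 (-0.22 to 0.47). Hey1 was at -0.11 (-0.49 to 0.28) and 0.34 (-0.03 to 0.72), and Gja5 at -0.81 (-1.94 to 0.29) and -0.49 (-1.30 to 0.30). None of these 7 genes had an interval away from 0 under both labels. With every nucleus thinned to 1000 UMIs, Hey1 under the striatum label was at 1.23 (0.50 to 1.99) and Bmx under the cortex label at -0.93 (-1.69 to -0.19), and 3 and 2 of the 9 genes were past 1.5-fold. In the nuclei that were not arterial-scored, 4 genes had intervals below 0 under the cortex label: Jag2 (-0.59, -0.96 to -0.23), Dll4 (-0.65, -1.30 to -0.02), Hey1 (-0.63, -1.27 to -0.01) and Notch1 (-0.29, -0.53 to -0.05). Under the striatum label the same genes were at -0.09, 0.06, 0.38 and 0.09, each with an interval that included 0. The share of all genes with intervals below 0 in these nuclei is not given here, so the count of 4 has no background beside it. In all endothelial-gated nuclei under the cortex label, 11.3% of genes had intervals away from 0 in either direction.

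**Figure D5:**
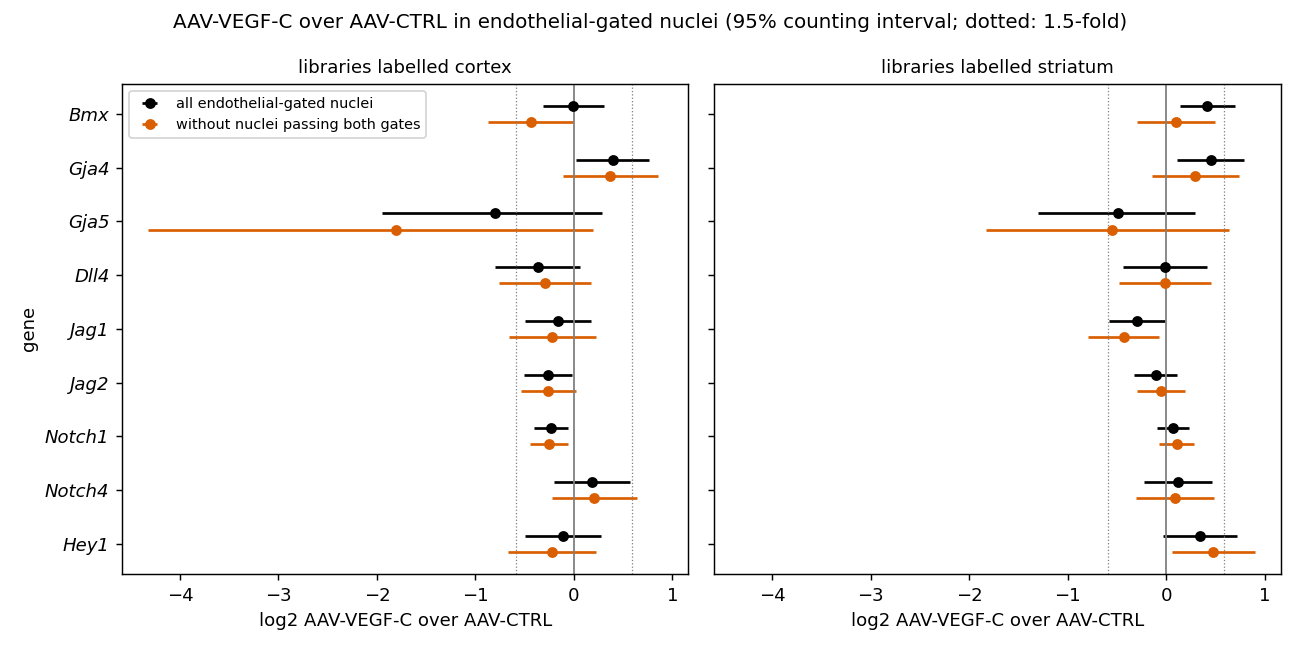
Log2 ratio of AAV-VEGF-C to AAV-CTRL for each gene in endothelial-gated nuclei, libraries labelled cortex on the left and striatum on the right, with 95% counting intervals; black points are all endothelial-gated nuclei, orange points leave out nuclei passing both gates, and dotted lines mark 1.5-fold. Black intervals of Gja4 lie above 0 in both panels (0.39 and 0.45) and the orange ones reach it.

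In smooth muscle-gated nuclei the AAV comparison rested on 0 to 17 UMIs a gene and library, and of the ratios that could be formed, each had an interval that included 0. In other nuclei Jag1 was higher with AAV-VEGF-C under the cortex label (0.37, 0.07 to 0.68) and lower under the striatum label (-0.23, -0.44 to -0.01), and Notch1 was lower under the striatum label (-0.21, -0.33 to -0.09). Hey1 was higher there under the cortex label (0.15, 0.005 to 0.30) and at 0.16 (-0.0007 to 0.33) under the striatum label.

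Between region labels, endothelial-gated nuclei with AAV-CTRL were lower under the striatum label in Dll4 (log2 -0.50, -0.92 to -0.09), Notch1 (-0.28, -0.44 to -0.11), Hey1 (-0.54, -0.93 to -0.15) and Bmx (-0.37, -0.67 to -0.06). None of the 9 was past 1.5-fold there, where 15.5% of 14455 genes were higher and 5.87% lower. With AAV-VEGF-C no interval of the 9 lay away from 0, and Gja5, at 0.70 (-0.34 to 1.80), was past 1.5-fold, where 9.88% of 14216 genes were higher and 7.11% lower. In other nuclei Jag1 was higher under the striatum label with both vectors (1.21, 0.94 to 1.49, and 0.61, 0.37 to 0.86), Jag2 (0.59 and 0.69) and Notch1 (0.29, 0.16 to 0.41, and 0.16, 0.04 to 0.28) too, and Hey1 was lower (-0.38 and -0.37). Bmx (0.73, 0.09 to 1.40), Gja4 (0.61, 0.12 to 1.11) and Gja5 (1.00, 0.37 to 1.65) were higher there with AAV-CTRL, and with AAV-VEGF-C their intervals included 0.

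The rest of the pathway was read from a list of 48 Notch genes without the 9. Of these, 7 of 48 were at least 4-fold higher in endothelial-gated nuclei in all 4 libraries, where 5.41% of all genes tested were: the receptor Notch3, the fringe enzyme Mfng, Dtx3l, the feedback inhibitor Nrarp and the transcriptional repressors Hes1, Hey2 and Heyl. The 4 genes of the list with most endothelial UMIs were the coactivator Maml2, the protease Adam10, Notch3 and Hes1, and Hes1 stood at 182, 165, 126 and 130 CPM. Notch3 stood at 173, 191, 176 and 200 CPM in endothelial-gated nuclei and at 683 CPM in pericyte-marker nuclei, a class for which it was a marker. Hey2 and Heyl were also higher in pericyte-marker nuclei, at 41.25 and 70.2 CPM, against 19.4 to 30.3 and 20.5 to 28.5 CPM in endothelial-gated nuclei. Mfng, Dtx3l, Nrarp and Hes1 were lower in pericyte-marker than in endothelial-gated nuclei. Between AAV labels 0 of 44 were past 1.5-fold lower under the cortex label, and under the striatum label 0 of 46 were higher and 1 lower (Hes5, named after its value was seen), with medians of 0.02 and -0.07. Between zones 0 of 45 were past 2-fold in either direction, where 4.07% of all genes were higher and 3.52% lower, with a median log2 ratio of -0.02.

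Of 24 further arterial genes, 17 were at least 4-fold higher in endothelial-gated nuclei, beside the same 5.41% of all genes, and the most abundant were the chemokine Cxcl12, Nebl, the matrix protein Mgp and Clu. Between AAV labels 1 of 23 was lower under the cortex label (Sox18) and 1 of 24 higher under the striatum label (Gkn3), named after their values were seen, beside 3.57% of all genes lower under the cortex and 3.49% higher under the striatum label. Of the 10 arterial genes that took no part in the zone score, 0 were at least 2-fold higher in arterial-scored than in venous-scored nuclei, with a median log2 ratio of 0.14. Of the other lists, 12 of 15 venous genes tested were at least 4-fold higher in endothelial-gated nuclei, 6 of 9 capillary genes and 3 of 12 vascular growth genes. Between AAV labels, 2 venous genes were higher and 1 lower of 15 under the cortex label and 1 higher and 0 lower of 16 under the striatum label. Over all genes tested, 4.5% were higher and 3.57% lower under the cortex label, and 3.49% and 8.34% under the striatum label. Of the capillary genes 0 of 9 were past 1.5-fold under either label. Of the growth genes 2 of 11 were higher under the cortex label, where 4.5% of all genes were, and 0 of 11 under the striatum label. These 2, named after their values were seen, were Pgf (log2 0.59, -0.24 to 1.46) and Apln (1.02, -0.32 to 2.53), and both intervals included 0. Ackr1, an atypical chemokine receptor of venular endothelium, was named after its values were seen. It was past 1.5-fold higher with AAV-VEGF-C under both region labels with its intervals away from 0, at log2 0.88 (0.46 to 1.30) and 0.78 (0.46 to 1.11). The share of all genes past that fold under both labels is not given here. The endothelial level of Ackr1 was 27.3, 50.2, 33.6 and 57.9 CPM, against 31.9, 36.6, 26.7 and 30.2 CPM in other nuclei. Under each region label it was thus higher with AAV-VEGF-C in both kinds of nuclei. In cortex AAV-CTRL the endothelial level was below that of other nuclei.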

How the data were processed

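Single-nucleus libraries (10x Genomics 3' v3 chemistry) were made from pooled tissue. The authors deposited raw UMI counts per gene and nucleus as filtered matrices. File headers name Cell Ranger 5.0.1, and the submitters' processing notes name Cell Ranger 5.1.1 and mm10; the annotation and the treatment of intronic reads are not given in the sources used here. The deposited counts start at 719 to 888 UMIs a nucleus.

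Doublets called by Scrublet (scanpy 1.11.5, expected rate 8%) were left out, 4.31 to 7.95% of nuclei a library, and 8.40 to 16.1% of those passing the endothelial gate. Counts were summed per library and gate or marker class and scaled to 1000000 (CPM). A marker class was given to a nucleus by the best-fitting marker list. With 1 library a group nothing was tested: levels carry exact Poisson intervals, shares Clopper-Pearson intervals and ratios exact conditional binomial intervals (scipy 1.17.1, numpy 2.4.6). UMIs in a class came to 139816 to 201561 a library for smooth muscle-gated and 2633463 to 4045443 for endothelial-gated nuclei. Genes entered a comparison with at least 20 UMIs over its libraries, or 80 where 4 libraries were summed; folds of 4 (gates), 2 (zones) and 1.5 (AAV and region labels) counted as past the fold. Scripts were tested on simulated data. The members, gene lists and tests were chosen with earlier results of these data known. Named were the 9 members, up to 4 most abundant genes of each list, genes past 1.5-fold under both region labels and, for each member, the 3 genes of highest r among 19055 with at least 100 UMIs. Promoter windows are from RefSeq and positions from GENCODE. Alternatives covered doublets, gate and zone thresholds, scaling, filters, thinning and left-out nuclei. Genes of the Notch list past 1.5-fold higher under the cortex label are not reported here. Figures were drawn with matplotlib 3.10.9.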

Additional observations from a re-analysis of the deposited data

How the results depend on the processing

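Each group held 1 library, so there was no replicate to leave out. The labels carry no replicate numbers, and no fit that pairs libraries by region label or by mice was run. Counting error limits Gja5 (93 endothelial UMIs) and the smooth muscle-gated nuclei most.

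Of the AAV ratios recomputed in endothelial-gated nuclei, 128 stayed within counting error of the reported value, which for values near 0 includes a change of sign, 15 moved further and 1, with its reported interval away from 0, changed sign. This was Bmx under the striatum label, at -0.11 with nuclei of another marker class or with smooth muscle markers left out. Across its alternatives that ratio ranged from -0.11 to 0.54, and Gja4 from 0.33 to 0.46 under the cortex and from 0.04 to 0.52 under the striatum label. The count of genes past 1.5-fold, 1 and 0 of 9 as reported, was 0 under the cortex label with called doublets kept, 0 and 1 with a gate of 3 UMIs, 2 and 1 with those nuclei left out, and 3 and 2 with every nucleus thinned to 1000 UMIs, which gives each nucleus the same weight. Ratios whose reported intervals included 0 crossed it too: Dll4 went from -0.37 to 0.26 and Notch4 from 0.19 to -0.11 (cortex), and Notch1 from 0.07 to -0.28 (striatum) after thinning, as did Notch1 (0.61 to -0.94) and Jag2 (-0.29 to 1.06) in smooth muscle-gated nuclei under the striatum label. Counts over all genes of 621 higher and 493 lower (cortex) and 514 and 1229 (striatum) became 261, 200, 269 and 674 with at least 50 UMIs a gene and 3499, 2822, 2854 and 4390 with at least 1. Of ratios whose reported intervals lay away from 0, the sign also turned for 2: Hey1 in smooth muscle-gated over other nuclei at -0.74 after thinning, and Jag1 between zones at -0.031 without nuclei passing both gates, where 3 rather than 6 genes were at least 2-fold higher. The 7 genes at least 4-fold higher in endothelial-gated nuclei were 6 with the mixed-class nuclei left out and 7 under the other alternatives run, while 29 recomputed folds of single genes over other nuclei moved beyond counting error and 34 did not. Leaving out nuclei passing both gates or of the ependymal class, and mixed-class nuclei for zones and gates, was chosen after seeing the data. The causes were not tested.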
